A study of Mus musculus with 4 samples.

Results

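Connective tissue growth factor (Ctgf, also Ccn2), Cyr61 (also Ccn1), Ankrd1, Amotl2, Ajuba, Lats2 and Axl are widely used target genes of the YAP/TEAD transcription complex, and Yap1, Wwtr1 and Tead1 encode its components. These 10 genes were taken by their symbols from the 27027 entries of the gene table as known targets and components of the complex, by a rule with no threshold on measured values. The choice was made with earlier results of these data known, so that counts beside the share of all genes describe the chosen genes only. Hepatic RNA of male C57BL/6J mice (C57BL/6 in the labels), 9 to 12 weeks old and fasted for 10 h, was obtained 24 h or 48 h after an intraperitoneal injection of 0.9% NaCl solution (control) or of acetaminophen (APAP) at 300 mg/kg, a non-lethal dose that causes acute liver injury. The study asked which genes are expressed while the liver moves from injury to repair. For each condition RNA was pooled, from 6 mice in each control pool and from 7 mice in each APAP pool, and each of the 4 pools gave 1 library of massive analysis of cDNA ends (MACE), which reads the 3′ ends of polyadenylated mRNA. A pool gives the mean over its mice, which hides the variation between mice and leaves differences between the sequenced pools without a replicate check. The paper also measured some genes by real-time PCR in single mice. There it reports higher Ctgf after APAP at a time between 24 h and 48 h. Reads on genes amounted to 4859661 in the 24 h control pool, 5191990 in the 48 h control pool, 5698778 in the 24 h APAP pool and 4938164 in the 48 h APAP pool. The labelled tissue carried its markers, with Alb (albumin) at 208729, 225055, 243213 and 254523 reads in the same order.

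YAP (encoded by Yap1) and TAZ (encoded by Wwtr1) are transcriptional coactivators that do not bind DNA themselves and act through the TEAD factors. In the Hippo pathway the kinases encoded by Stk3 and Stk4 activate the kinases encoded by Lats1 and Lats2, which phosphorylate YAP and TAZ and thereby keep them out of the nucleus. Cell contact, stretch and the actin cytoskeleton act on this pathway, and in the liver it is known for its part in organ size, bile duct fate and regrowth after tissue loss.

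TEAD factors recognize the letters GGAATG, or CATTCC read on the other strand. Both forms were searched on both strands in the 250 bases before the transcript starts given by RefSeq (GRCm38.p6). Cyr61, Ankrd1, Amotl2, Ajuba, Lats2, Axl, Yap1 and Wwtr1 had an entry, while Ctgf and Tead1 had none. In the GENCODE annotation, all 250 bases of the Ankrd1 window, 136 bases of the Amotl2 window and 34 bases of the window at the more downstream start of Wwtr1 lie in exons of these genes, so that there the window is partly or wholly transcribed. The motif was present in 7 of these 8 genes and, among all 32851 promoters of this length, in 12.6%. Since the genes were chosen as known targets or components of the YAP/TEAD complex, this share describes the chosen genes and is not a result of the experiment. A match of letters does not show a bound site, and the missing match for Lats2, at both of its starts, concerns this window alone. Letters of the AP-1 motif (TGANTCA on either strand), which often accompanies TEAD sites, were present in 0 of the 8 genes and in 6.75% of all promoters, so that no overlap of the motifs occurred. The following stretches of 30 bases show each TEAD motif in capitals with its flanks, 5′ to 3′ on the strand of the gene, to let the flanks be compared:
Cyr61, chr3:145650071-145650100, minus strand: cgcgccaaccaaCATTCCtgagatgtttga
Ankrd1, chr19:36120037-36120066, minus strand: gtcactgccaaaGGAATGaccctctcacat
Ankrd1, chr19:36119950-36119979, minus strand: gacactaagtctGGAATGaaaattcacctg
Amotl2, chr9:102717727-102717756, plus strand: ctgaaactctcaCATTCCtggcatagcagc
Ajuba, chr14:54577830-54577859, minus strand: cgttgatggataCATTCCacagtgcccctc
Ajuba, chr14:54577808-54577837, minus strand: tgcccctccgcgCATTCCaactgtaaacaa
Axl, chr7:25788949-25788978, minus strand: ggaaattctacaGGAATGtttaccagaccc
Yap1, chr9:8004720-8004749, minus strand: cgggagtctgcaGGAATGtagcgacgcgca
Wwtr1, chr3:57576029-57576058, minus strand: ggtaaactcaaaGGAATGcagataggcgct
Ankrd1 and Ajuba held 2 motifs each, and 1.02% of all promoters held at least 2. The motif began 65 bases before the start in Amotl2, 103 in Cyr61, 136 or 170 in Wwtr1 (depending on its start), 141 in Yap1, 233 in Axl, 123 and 210 in Ankrd1, and 164 and 186 in Ajuba.

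At 24 h, Ctgf, Cyr61, Ajuba and Wwtr1 were higher in the APAP pool than in the matching control pool, with folds of 12.6, 5.54, 4.95 and 2.08. At 48 h, Ctgf and Cyr61 were higher, with folds of 8.75 and 2.36. A gene is called higher or lower here when its fold of normalized reads is at least 2 and the 95% exact counting interval of the fold does not hold 1. Reads were divided by size factors from DESeq2, and intervals cover counting error only. The rule was applied to the 12113 entries whose normalized reads averaged 10 or more over the 4 libraries, among them 9 of the 10 genes. Ankrd1, with a mean of 6.47, was not among them, and Ctgf, with fewer than 10 normalized reads in both control pools, passed through its APAP pools. Under this rule 4 of the 9 genes were higher and 0 lower at 24 h, where 4.89% of all tested genes were higher and 4.99% lower. At 48 h, 2 were higher and 0 lower, beside 4.79% and 4.99% of all tested genes. The study's own threshold of 5-fold was reached by 2 of the 9 genes at 24 h (Ctgf and Cyr61) and by 1 at 48 h (Ctgf), while 0.652% and 0.553% of all tested genes reached it. With counts under 10 reads set to 10, Ctgf at 48 h fell to 4.37 and missed it. Ajuba, at 4.95 just below this threshold at 24 h, passed it with TMM size factors (5.03) and with library totals (5.63). The median log2 fold of the 9 genes (pseudocount of 1 normalized read) was 0.64 at 24 h and 0.31 at 48 h, against 0.0071 and -0.02 over all tested genes. Scaling to library totals in place of size factors raises every log2 fold by 0.19 at 24 h and by 0.27 at 48 h. In whole liver RNA, fewer cells of a type and less RNA per cell cannot be told apart, and the same holds for more of either.

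**Figure D1:**
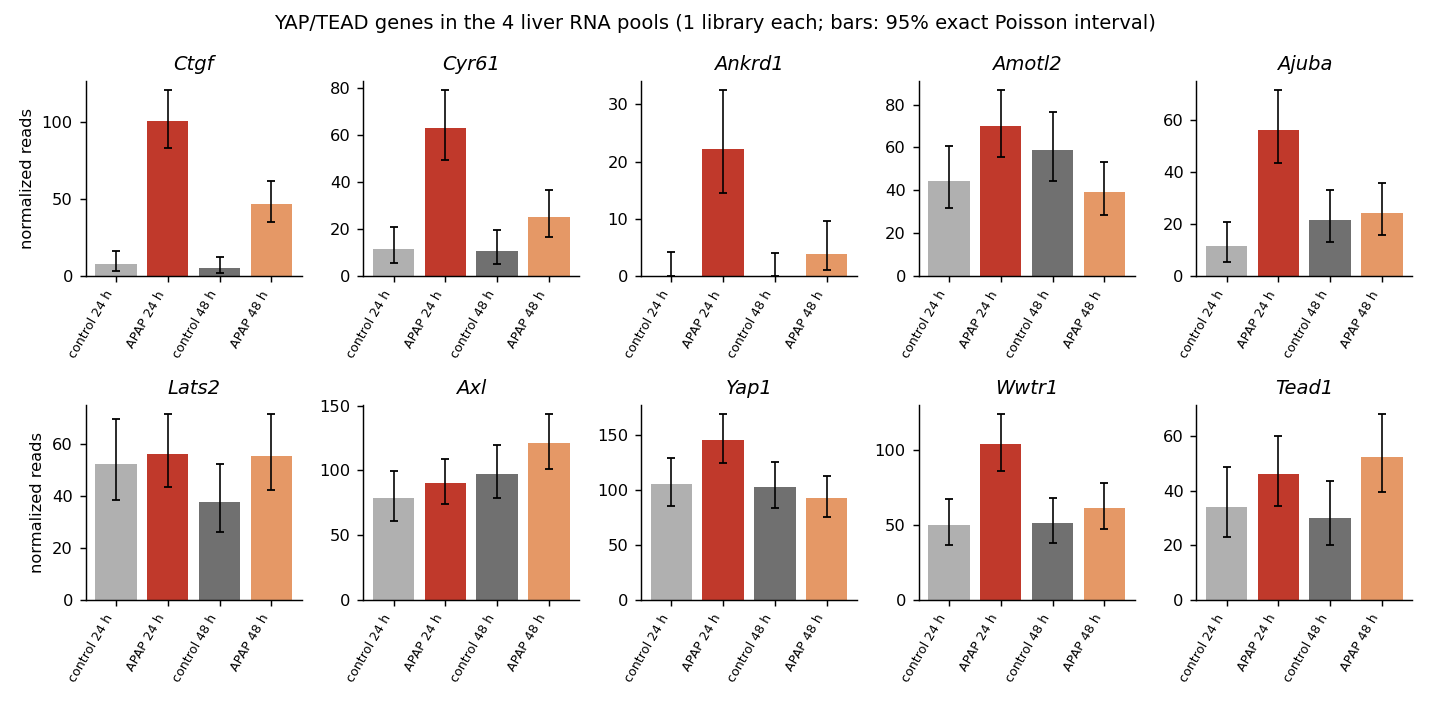
Normalized reads (y axis) of the 10 genes in the 4 pools (x axis), 1 library each, with 95% exact Poisson intervals of counting error as error bars. Ctgf, Cyr61, Ankrd1, Ajuba, Amotl2, Wwtr1 and Yap1 stand highest in the 24 h APAP pool. Lats2 stays between 37.5 and 56.2 in all pools, also highest in the 24 h APAP pool but close to that at 48 h (55.3).

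Ctgf and Cyr61 encode secreted matricellular proteins of the CCN family, and they had the largest folds of the 9 tested genes at 24 h. Ctgf (chr10:24595442-24598683, plus strand, 5 exons, GRCm38) had 7 reads in the 24 h control pool, 118 in the 24 h APAP pool, 5 in the 48 h control pool and 50 in the 48 h APAP pool. Both APAP pools thus stood apart from both control pools, the one at 24 h highest. The fold at 24 h was 12.6 (interval 5.94 to 32.1) and that at 48 h was 8.75 (3.51 to 28.1), with wide intervals because so few reads were counted in the controls. Cyr61 (chr3:145646976-145649981, minus strand, 5 exons) had 10 and 74 reads in the control and APAP pools at 24 h and 10 and 27 reads at 48 h. Its order over the pools was that of Ctgf, with a smaller distance. Its fold at 24 h was 5.54 (2.85 to 12.04) and that at 48 h was 2.36 (1.11 to 5.47). The 250 bases before the start of Cyr61 (chr3:145649986-145650235, minus strand) are shown because Cyr61 was higher at both times:
Cyr61 promoter: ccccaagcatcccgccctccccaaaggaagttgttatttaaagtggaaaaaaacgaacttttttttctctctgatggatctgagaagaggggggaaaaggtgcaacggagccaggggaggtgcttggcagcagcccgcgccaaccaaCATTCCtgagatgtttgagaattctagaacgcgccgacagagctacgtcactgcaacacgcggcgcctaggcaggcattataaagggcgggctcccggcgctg

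Ankrd1 (chr19:36111961-36120099, minus strand, 9 exons) encodes an ankyrin repeat protein found in the nucleus, known mostly from heart and skeletal muscle. It had 0 reads in both control pools, 26 in the 24 h APAP pool and 4 in the 48 h APAP pool. A count of 0 was set to a floor of 3 reads. Against this floor the fold of Ankrd1 at 24 h was at least 6.49. Its exact 95% interval, which allows more than 3 reads under a count of 0, began lower, at 4.92, and had no upper end. At 48 h the fold against the floor was at least 1.17, with an interval from 0.577 upward. Against the sum of both control pools, with the floor of 3 reads over the sum, the fold was at least 13.4 at 24 h (interval from 10.1 upward) and at least 2.27 at 48 h (from 1.12 upward). The summed pools change the controls and the depth behind the floor together, and against the control pool of the other time the fold at 48 h was at least 1.10. Between the APAP pools, the level at 48 h was 0.169 times that at 24 h (0.0430 to 0.488).

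Amotl2, Ajuba and Lats2 encode proteins that act back on the pathway. Amotl2 is an angiomotin-like protein that binds YAP, Ajuba is a LIM domain protein that binds LATS kinases and restrains them, and Lats2 is one of these kinases. Ajuba (chr14:54567472-54577558, minus strand, 8 exons) had 10 reads in the 24 h control pool and 66 in the 24 h APAP pool, and 20 and 26 reads at 48 h. Only the 24 h APAP pool stood apart, and the control pools themselves differed by a factor of 1.89 (0.843 to 4.51). At 24 h the fold was 4.95 (2.53 to 10.8), and at 48 h it was 1.14 (0.610 to 2.15). Against the sum of both control pools the folds were 3.40 (2.17 to 5.42) and 1.47 (0.837 to 2.58), and against the control pool of the other time they were 2.62 and 2.14, so that the smaller fold at 48 h depends in part on the choice of control. The last 300 bases of the Ajuba transcript share stretches of at least 100 bases at 95% identity or more with the transcript ends of 11 other genes, so that some of its reads could have been exchanged with theirs. The other 9 genes had no such match in this comparison, although the last exon of Lats2 lies within another gene, as described below. The 250 bases before its start (chr14:54577662-54577911, minus strand) hold both of its motifs:
Ajuba promoter: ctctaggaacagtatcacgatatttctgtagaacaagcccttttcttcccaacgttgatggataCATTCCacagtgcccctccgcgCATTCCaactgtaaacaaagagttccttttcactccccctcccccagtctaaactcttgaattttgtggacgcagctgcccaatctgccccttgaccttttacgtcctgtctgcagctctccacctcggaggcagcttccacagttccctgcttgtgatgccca

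Amotl2 (chr9:102716672-102733418, plus strand, 10 exons) had 39 and 82 reads in the control and APAP pools at 24 h and 55 and 42 reads at 48 h. The APAP pool had more reads than its control at 24 h and fewer at 48 h. The folds were 1.58 (1.06 to 2.37) and 0.668 (0.436 to 1.02), both short of 2-fold in either direction. Against the control pool of the other time they were 1.18 (0.8315 to 1.698) and 0.888 (0.561 to 1.41). Against the sum of both control pools they were 1.35 (0.989 to 1.83) and 0.759 (0.515 to 1.10). The intervals against these other controls all held 1. Lats2 (chr14:57689662-57758388, minus strand, 8 exons) had 46 and 66 reads at 24 h and 35 and 59 reads at 48 h. Its folds of 1.08 (0.727 to 1.602) and 1.47 (0.954 to 2.31) had intervals that held 1, so that no difference was detectable with these size factors at this depth. With library totals the fold of Lats2 at 48 h was 1.77 (1.147 to 2.775), with an interval off 1. Against the control pool of the other time it was 1.06 (0.707 to 1.59), so that the reading at 48 h depends on scaling and control. The Lats2 count is uncertain, because its last exon lies within Gm49361, a gene on the same strand, and the table joins reads of both, and of antisense features, in this entry.

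Axl (chr7:25757273-25788705, minus strand, 20 exons) encodes a receptor tyrosine kinase that binds the ligand Gas6 and is present on macrophages and other cells. It had 69 and 106 reads in the control and APAP pools at 24 h, and 91 and 129 reads at 48 h. After normalization the pools ordered as control at 24 h (78.4), APAP at 24 h (90.3), control at 48 h (97.6) and APAP at 48 h (121), with neighbours whose counting intervals overlapped. The folds were 1.15 (0.842 to 1.58) and 1.24 (0.941 to 1.64). With library totals the fold of Axl at 48 h was 1.49 (1.131 to 1.971), with an interval off 1. Against the control pool of the other time it was 1.54 (1.14 to 2.10), and against the sum of both control pools 1.37 (1.08 to 1.74). These intervals were off 1 as well, so that the reading of Axl at 48 h depends on scaling and control.

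Among the components of the complex, Wwtr1 (chr3:57455649-57575910, minus strand, 7 exons) had 44 reads in the 24 h control pool and 122 in the 24 h APAP pool, and 48 and 65 reads at 48 h. Its 24 h APAP pool stood apart from the other 3 pools. At 24 h the fold was 2.08 (1.46 to 3.003), just over the limit of 2, and at 48 h it was 1.18 (0.803 to 1.76). The 250 bases before the more upstream of its RefSeq starts (chr3:57575911-57576160, minus strand) are given because Wwtr1 was the only component called higher:
Wwtr1 promoter: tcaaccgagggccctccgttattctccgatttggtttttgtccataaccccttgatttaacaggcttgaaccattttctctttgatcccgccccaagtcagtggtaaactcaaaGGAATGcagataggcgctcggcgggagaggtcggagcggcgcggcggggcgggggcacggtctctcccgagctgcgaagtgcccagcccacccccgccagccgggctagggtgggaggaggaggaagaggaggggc

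Yap1 (chr9:7931999-8004596, minus strand, 8 exons) had 93 and 171 reads at 24 h and 96 and 99 reads at 48 h. The normalized reads were 105.7, 145.6, 102.9 and 92.8 in the control and APAP pools at 24 h and 48 h, so that the 24 h APAP pool was again the highest. At 24 h the fold of Yap1 was 1.38 (1.06 to 1.79). At 48 h it was 0.902 (0.674 to 1.21), and with library totals it turned to 1.08. Tead1 (chr7:112679318-112906807, plus strand, 14 exons), which encodes a DNA-binding partner of YAP and TAZ, had 30 and 54 reads at 24 h and 28 and 56 reads at 48 h. The fold of Tead1 at 24 h was 1.35 (0.848 to 2.18). At 48 h it was 1.75 (1.09 to 2.86) and reached 2.10 with library totals. Against the control pool of the other time the fold of Tead1 at 48 h was 1.54 (0.971 to 2.485), with an interval that held 1. Against the sum of both control pools it was 1.64 (1.12 to 2.41), with an interval off 1.

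**Figure D2:**
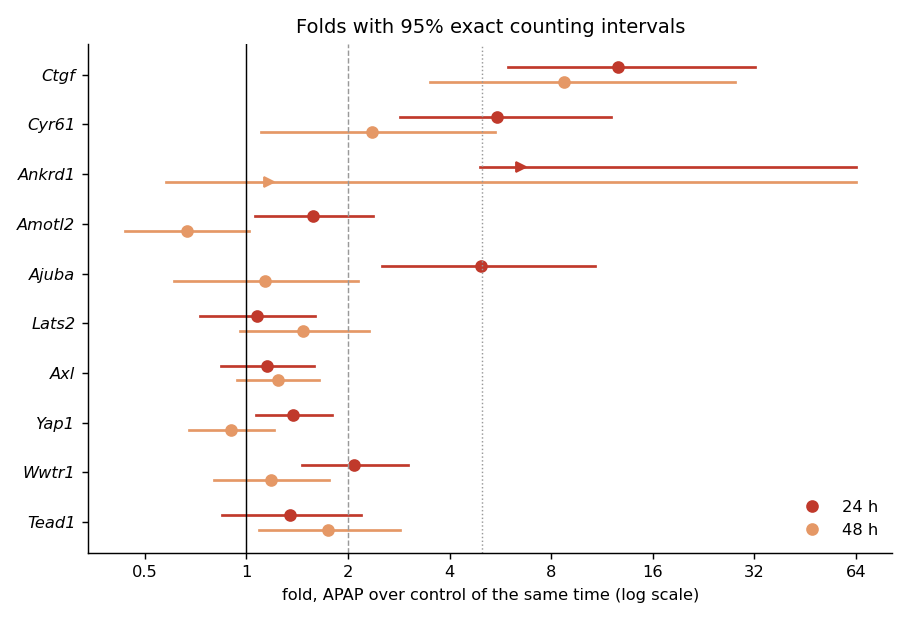
Fold of normalized reads, APAP over control of the same time point (x axis, log scale), for the 10 genes (y axis) at 24 h and 48 h, with 95% exact counting intervals as lines, a dashed line at 2 and a dotted line at 5. Triangles mark the folds of Ankrd1 against the floor of 3 reads, whose intervals have no upper end and run to the edge of the plotted range, and at 24 h the points of Ctgf, Cyr61, Ajuba and Wwtr1 lie at or beyond 2 with intervals off 1.

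Folds at both times were compared directly by the ratio of the fold at 48 h to the fold at 24 h, with a conditional exact interval from the 4 counts. This ratio compares 4 libraries and says nothing about the spread between mice. It lay below 1 with its interval in 4 of the 9 genes, beside 6.72% of the 8871 genes for which it was computed (reads in all 4 libraries and a mean of 10 to under 150 normalized reads). The ratio was 0.230 (0.0850 to 0.604) for Ajuba and 0.424 (0.235 to 0.765) for Amotl2. For Wwtr1 it was 0.570 (0.332 to 0.978) and for Yap1 0.655 (0.441 to 0.972), and with library totals these 2 intervals reached 1.03. The ratio was 0.692 (0.180 to 2.91) for Ctgf and 0.426 (0.142 to 1.29) for Cyr61, with intervals too wide, from the few reads in the controls, to tell the times apart. Intervals for Tead1 (ratio 1.30), Lats2 (1.37) and Axl (1.08) held 1 as well.

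Without the control pools, the level in the 48 h APAP pool was 0.466 times that at 24 h (0.328 to 0.655) for Ctgf and 0.402 times (0.248 to 0.632) for Cyr61. The same comparison gave 0.434 (0.264 to 0.692) for Ajuba, 0.564 (0.379 to 0.828) for Amotl2, 0.587 (0.427 to 0.799) for Wwtr1 and 0.637 (0.492 to 0.821) for Yap1. Of these, Ctgf, Cyr61 and Ajuba were lower by the 2-fold rule, 3 of the 9 tested genes beside 2.42% of all tested genes, and Amotl2, Wwtr1 and Yap1 had intervals below 1 without reaching 2-fold. Axl went the other way, at 1.34 times (1.03 to 1.75), and Lats2 and Tead1 stood at 0.984 (0.681 to 1.42) and 1.14 (0.771 to 1.69). The direct comparison was added after the data had been seen.

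**Figure D3:**
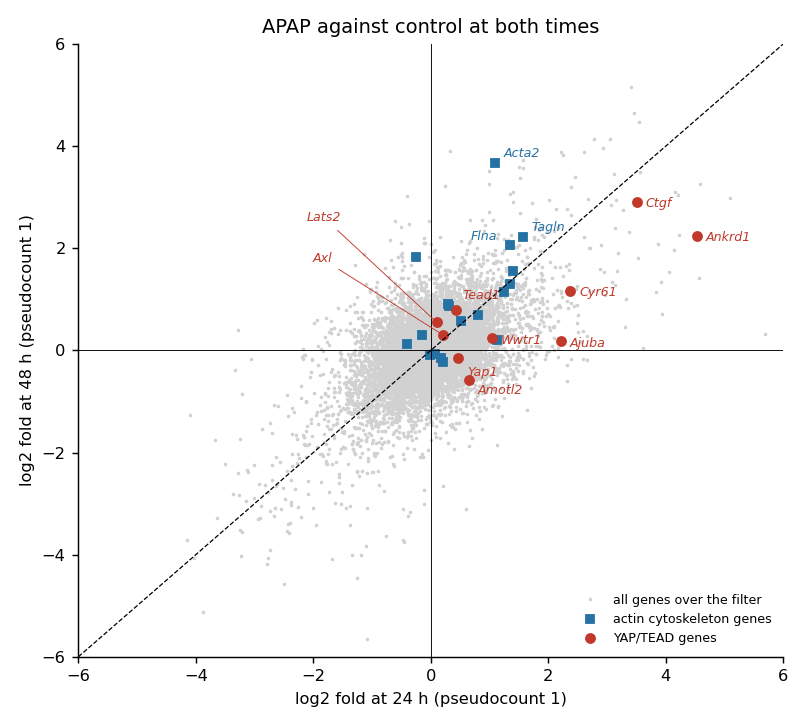
Log2 fold at 24 h (x axis) and at 48 h (y axis), APAP over control with a pseudocount of 1 normalized read, of the 12113 tested genes (grey), the 18 tested actin cytoskeleton genes (blue) and the 10 YAP/TEAD genes (red, Ankrd1 included although its mean was below 10). Ctgf, Cyr61, Ankrd1, Ajuba, Amotl2, Wwtr1 and Yap1 lie below the dashed line of equal folds, and Acta2 lies well above it.

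The control pools, which received no APAP, show how far pools differ without it. Between them 3.21% of the tested genes differed at least 2-fold in either direction with an interval off 1, and 0 of the 9 genes did. With 9 genes, a count of 0 is near this background. The few control reads also leave wide intervals for Ctgf (0.169 to 2.47) and Cyr61 (0.352 to 2.53), which hold differences of 2-fold. Control folds (48 h over 24 h) of the 9 genes ranged from 0.674 for Ctgf to 1.89 for Ajuba. Summed over all 10 genes and without normalization, 348 reads in the 24 h control pool stood against 885 in the APAP pool, and 388 against 557 at 48 h.

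Of the other genes of a YAP/TAZ target signature derived from tumors, 15 of 16 were in the table and 9 passed the filter on low reads. Of these, 1 was higher and 0 lower at 24 h, and 2 were higher and 1 lower at 48 h, beside 4.89% higher and 4.99% lower at 24 h and 4.79% and 4.99% at 48 h over all tested genes. With 9 genes, a count of 1 is near this background. Ptpn14, a phosphatase that binds YAP, had 13 and 42 reads at 24 h and 9 and 26 reads at 48 h, with folds of 2.42 (1.28 to 4.92) and 2.53 (1.15 to 6.13). Ccdc80, a matrix-associated protein, had 24 and 45 reads at 24 h and 20 and 71 reads at 48 h, and was called higher at 48 h (3.10, 1.87 to 5.38) but not at 24 h (1.41). Gadd45a, a stress-induced regulator of growth arrest, had 20 reads in both pools at 24 h and 16 and 7 reads at 48 h, and was lower at 48 h (0.383, 0.133 to 0.983). The median log2 fold of the 9 genes was 0.19 at 24 h and 0.35 at 48 h.

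Hippo kinases and regulators, including the other TEAD factors, were all 23 in the table, and 19 passed the filter. At 24 h 1 was higher and 0 lower (4.89% and 4.99% of all tested genes), near the background, and at 48 h 2 were higher and 0 lower (4.79% and 4.99%). The median log2 folds were 0.11 and 0.25, beside 0.0071 and -0.02 over all tested genes. Rassf1, a scaffold protein of the Stk3 and Stk4 kinases, had 10 and 47 reads at 24 h (fold 3.52, 1.76 to 7.82) and 14 and 26 reads at 48 h (1.62, 0.818 to 3.37). Amot, the angiomotin that binds YAP, had 7 and 15 reads at 24 h and 6 and 19 reads at 48 h (2.77, 1.06 to 8.47), and it passed the filter through its APAP pools, with fewer than 10 normalized reads in both control pools. The kinase gene Map4k4 had 36 and 52 reads at 24 h and 18 and 57 reads at 48 h, with a fold of 2.77 (1.61 to 5.0) at 48 h that rests on a control pool with fewer reads than that at 24 h. Taok3, with the most reads of the list, had folds of 0.991 and 1.10.

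Actin cytoskeleton genes, many of them shared targets of SRF and its MRTF coactivators, included 7 of 18 tested genes that were higher at 24 h and 7 that were higher at 48 h, with 0 lower at either time, where 4.89% and 4.79% of all tested genes were higher and 4.99% lower at each time. The median log2 fold of the list was 0.41 at 24 h and 0.78 at 48 h, beside the same 0.0071 and -0.02. Acta2, smooth muscle actin and a marker of activated stellate cells, had 27 and 78 reads at 24 h and 13 and 202 reads at 48 h, with folds of 2.16 (1.38 to 3.49) and 13.6 (7.77 to 26.0). The 48 h control pool had 0.454 times the Acta2 level of that at 24 h. Tagln, which encodes an actin-binding protein of smooth muscle, had 43 and 172 reads at 24 h and 40 and 218 reads at 48 h (folds 2.997 and 4.77). The gene of the actin crosslinker filamin A, Flna, had 51 and 175 reads at 24 h and 39 and 190 reads at 48 h (2.57 and 4.26). Tpm2, a tropomyosin gene, had 26 and 29 reads at 24 h and 18 and 76 reads at 48 h (0.836 and 3.69). Whether the lists differ from the YAP/TEAD genes was not tested.

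**Figure D4:**
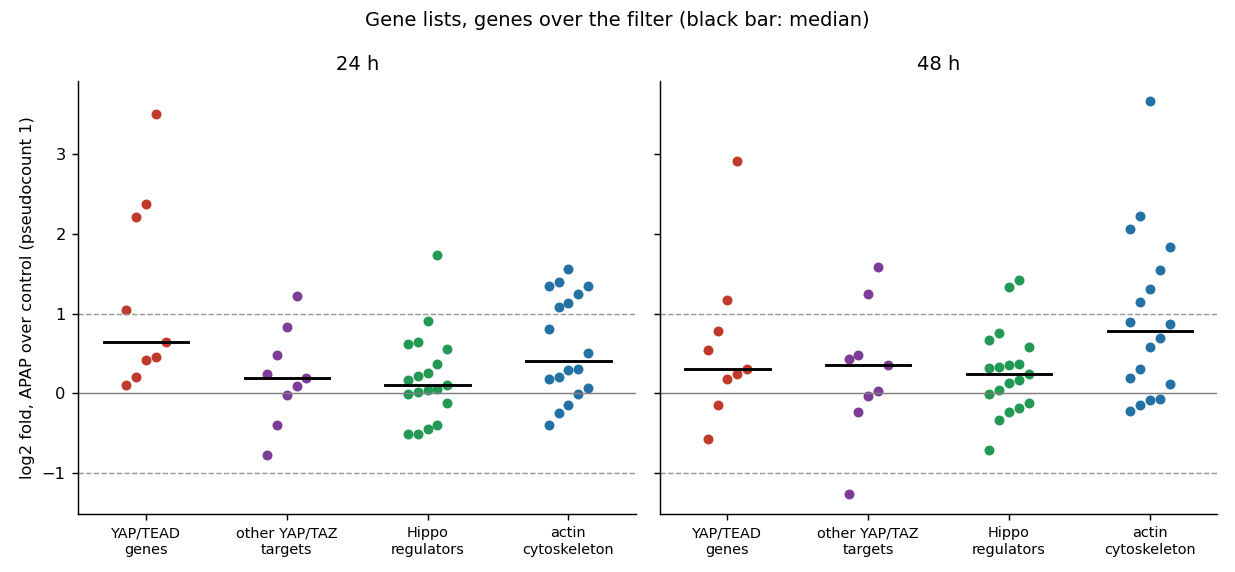
Log2 fold, APAP over control (y axis, pseudocount of 1 normalized read), of each gene over the filter in 4 gene lists (x axis) at 24 h (left) and 48 h (right), with black bars at the medians and dashed lines at 2-fold. The medians of the YAP/TEAD genes were 0.64 and 0.31, and those of the actin cytoskeleton genes 0.41 and 0.78.

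Markers of liver cell types were read in the same pools, and the part of those that differed in the values above was not tested. Of 8 cholangiocyte and ductular markers 3 passed the filter. Sox9, itself described as a YAP target in bile duct cells and the marker with the most reads, had 58 and 307 reads at 24 h (fold 3.97, 2.99 to 5.35) and 69 and 141 reads at 48 h (1.79, 1.33 to 2.42), highest in the 24 h APAP pool and next in that at 48 h, as were Ctgf and Cyr61. Spp1 (osteopontin), also made by macrophages, had 52 and 132 reads at 24 h (1.90) and 69 and 169 reads at 48 h (2.14, 1.61 to 2.88). The markers below the filter had few reads, with Krt7 at 8, 15, 8 and 2 reads, Krt19 at 6, 8, 13 and 8, Epcam at 2, 5, 10 and 7, Cftr at 0, 0, 2 and 0 and Cldn4 at 0, 0, 1 and 1 in the control and APAP pools at 24 h and 48 h. Summed over the list, normalized reads were 187.6 and 460.8 at 24 h and 247.7 and 377.9 at 48 h, a difference that came mainly from Sox9 and Spp1.

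All 9 stellate cell and fibroblast markers passed the filter. At 24 h, 0 were higher and 1 was lower (Lum, 0.444), near the 4.89% and 4.99% of all tested genes, and 4 were higher at 48 h, beside 4.79%. Col1a1, a chain of collagen I, had 27 and 52 reads at 24 h and 42 and 216 reads at 48 h (fold 4.497, 3.22 to 6.42), and Col1a2 and Des reached 3.21 and 2.22 at 48 h. The list sum was 537.7 and 612.4 normalized reads at 24 h and 579.0 and 1019 at 48 h, with Dcn as its most abundant gene. Of the 8 macrophage and monocyte markers, 2 were higher at 24 h (4.89% of all tested genes) and 3 at 48 h (4.79%), namely Cd68 (folds 1.89 and 5.11), Ly6c2 (5.24 and 5.77) and Ccr2 (3.75 and 3.94), while the Kupffer cell marker Clec4f, the most abundant of the list, stood at 0.534 and 0.985. Ly6c2 and Ccr2, under 10 normalized reads in both control pools, passed the filter through their APAP pools. The list sum was 700.3 and 617.5 at 24 h and 689.4 and 1029 at 48 h. Cd68 alone made up 63.3 and 323.5 of the sums at 48 h. Col1a1 made up 45.0 and 202.5 of the stellate cell and fibroblast sums at 48 h, while Lrat, Reln and Lum had folds of 0.832, 0.846 and 0.999. Sums of both lists were highest in the 48 h APAP pool, and their relation to the YAP/TEAD genes was not tested.

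Among 8 endothelial markers Lyve1 was higher at both times (2.62 and 2.04), where a count of 1 is near the background of 4.89% and 4.79%, and the list sum lay between 975.4 and 1104 in all pools, with Eng as its most abundant gene. Among 8 hepatocyte markers Cyp2e1 (0.369 at 48 h), the cytochrome that activates APAP, was the 1 gene past the rule, near the background of 4.99% lower, and their sum, led by Alb, was 448711 and 383772 at 24 h and 460801 and 443192 at 48 h. None of the 5 mesothelial markers passed the filter, and their sum did not exceed 23.9 normalized reads, with Gpm6a at 6, 6, 3 and 10 reads, Upk3b at 8, 4, 5 and 2 and Wt1 at 3, 0, 2 and 0.

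**Figure D5:**
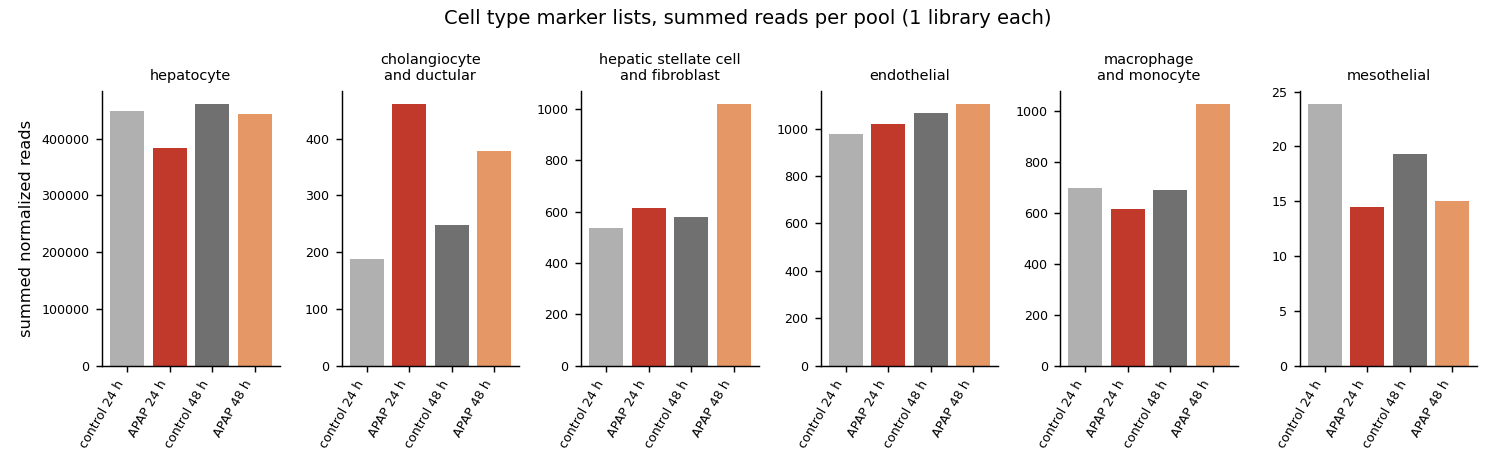
Summed normalized reads (y axis, linear and from 0, with a scale of its own for each list) of 6 lists of cell type markers in the 4 pools (x axis), 1 library each, without error bars. The cholangiocyte and ductular list is highest in the 24 h APAP pool (460.8), and the stellate cell and macrophage lists are highest in the 48 h APAP pool (1019 and 1029).

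The genes whose pattern over the 4 libraries was most like that of Ctgf, by Euclidean distance between centred log2 normalized reads, were Gsta1 (distance 0.386), Dusp5 (0.483), Mt1 (0.569), Maff (0.658) and Plaur (0.694). Gsta1, a glutathione S-transferase gene, had 81, 967, 65 and 580 reads in the control and APAP pools at 24 h and 48 h. Mt1, a metallothionein gene, had 620, 15298, 683 and 6428 reads in the same order. Both belong to families of similar genes that could exchange reads, and Dusp5 and Plaur had at most 3 reads in each control pool. Dusp5, Plaur and Maff, with fewer than 10 normalized reads in both control pools, passed the filter through their APAP pools. For Cyr61 they were Ifrd1 (0.170), Scara5 (0.271), Lor (0.282), Egr1 (0.325) and Gadd45g (0.326), of which Lor (6 and 5 reads in the control pools) passed the filter through its APAP pools. Ifrd1 had 26, 201, 24 and 67 reads and Egr1, an immediate early transcription factor gene, had 31, 235, 40 and 106 reads, each highest in the 24 h APAP pool and at intermediate level in that at 48 h. The likeness rests on 4 libraries and is a description.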

How the data were processed

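Per the study's methods, the authors digested RNA with DNase, prepared MACE libraries, eliminated duplicate reads by unique molecular identifiers, trimmed bases and poly(A)-tails, mapped on mm10 (GRCm38) and deposited HTSeq counts per gene, not normalized. The kit was MACE-kit v.2, and versions of the software are not given in the sources used here. The deposited table also holds RPM, log2 ratios, p-values and FDR, which were not used. Size factors came from DESeq2 1.42.0, with edgeR 4.0.16 (TMM) and library totals as alternatives, in R 4.3.3. Without replicates no test was run. Folds and 95% exact (Clopper-Pearson) intervals were computed in Python 3.11.15 (scipy 1.17.1, pandas 2.3.3, numpy 2.4.6), and plots drawn with matplotlib 3.10.9. Counts under 3 reads were set to 3 reads in folds. The procedure was run on simulated Poisson counts without variation between mice or pools, the error that the intervals assume. This checks the computation and cannot show how far pools vary. Of 27027 entries, 47 join several genes or an antisense feature. Positions are from GENCODE release M21, and transcript ends were compared by blastn 2.17.0. Genes named are all 10 YAP/TEAD genes, of each list up to 4 genes past the 2-fold rule with the largest fold and, of marker lists, the most abundant gene (without such genes, the 2 most abundant), and the 5 nearest patterns. Krt7, Krt19, Epcam, Cftr, Cldn4, Wt1 and Taok3 were named after their values had been seen. The genes and lists were chosen with earlier results of these data known. The ratio of folds over all genes was limited to a mean under 150 reads after the data had been seen.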

Additional observations from a re-analysis of the deposited data

Results flagged for a closer look

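In 4 of the 9 tested genes the interval of the ratio of folds lay below 1, beside 6.72% of the genes for which it was computed. The fold at 48 h was 0.230 times that at 24 h for Ajuba, 0.424 times for Amotl2, 0.570 times for Wwtr1 and 0.655 times for Yap1. With library totals the intervals of Wwtr1 and Yap1 reached 1.03 and thus held 1. Each ratio compares 4 libraries, and the difference was not tested over mice. For Ajuba the control pools, with 10 and 20 reads, contribute to the ratio, and between the APAP pools alone the level at 48 h was 0.434 times that at 24 h. The control pools also contribute for Amotl2, with 39 and 55 reads, and between the APAP pools alone its level was 0.564 times.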

How the results depend on the processing

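The alternatives were TMM size factors, scaling to library totals, no floor with a pseudocount of 1, a floor of 10 reads, a minimum mean of 1 or 30 in the filter, the control pool of the other time point and the sum of both control pools. Together with the comparison of the APAP pools, chosen after seeing the data, they gave 250 values, of which 238 stayed within the counting interval of the reported value, within 1.5 times of it for a count of genes, or within 0.1 of it for a median log2 fold (a limit set after seeing the data). With a minimum mean of 30, which leaves fewer genes tested, the genes higher were 2 at 24 h and 1 at 48 h, and those at least 5-fold higher at 24 h were 1. A floor of 10 reads lowered the fold of Ctgf at 48 h to 4.37, so that 0 genes were at least 5-fold higher at 48 h. It also lowered the bound of Ankrd1 at 24 h to 1.95, since it raises the control count itself. Library totals, which shift every log2 fold, raised the median log2 folds at 24 h and 48 h to 0.37 and 0.62 for the other YAP/TAZ targets, to 0.32 and 0.47 for the Hippo genes and to 0.59 and 1.05 for the actin cytoskeleton genes. They left 2 genes (Ajuba and Amotl2) with an interval of the ratio of folds below 1. At 24 h, 3 genes in place of 2 were at least 5-fold higher with TMM, with library totals or with a minimum mean of 1. With library totals or with the other control pool, 3 genes in place of 2 were higher at 48 h. No paired analysis was possible because each group holds 1 library. Depth limits Ctgf, Cyr61, Ankrd1 and Ajuba most, with 0 to 20 reads in the control pools.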
